A study of Homo sapiens with 14 samples.

Results

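Albumin, alpha-fetoprotein and 8 other proteins that hepatocytes secrete into plasma were followed in HepG2 cells, an established human line derived from a liver tumour. The 10 genes, ALB, AFP, TTR, RBP4, SERPINA1, SERPINC1, AHSG, AMBP, F2 and VTN, were chosen by name, and every probe set that the platform annotation gives for one of them was taken. There were 21 such probe sets, of which 19 carried 1 gene symbol and served 9 of the 10 genes, out of 19775 genes with a probe set of their own. VTN was listed on 2 probe sets only, each annotated to both SEBOX and VTN, which are neighbours on chromosome 17, so those signals cannot be given to VTN alone.

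The cells had been transfected with miR-124, a microRNA best known from the brain that lowers messenger RNAs with a matching site, or with a negative control whose sequence the labels do not give. Total RNA was taken 4, 8, 16, 24, 32, 72 and 120 h after each transfection, with 1 array for each of the 14 combinations and no replicate of a time. The labels name no promoter, clone or culture, so spread between separate cultures was not measured. For tests, each gene was represented by its probe set with the highest mean, and 13137 genes with a mean above 6.19 on the log2 scale were fitted together, all 9 of the genes with a probe set of their own among them.

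Plasma proteins of this kind are made in the liver and are read from genes that the factors HNF1, HNF4, FOXA and C/EBP keep active in hepatocytes. Albumin and alpha-fetoprotein are related carriers encoded next to each other, and in the liver alpha-fetoprotein is abundant before birth and albumin afterwards. Hepatoma lines such as HepG2 make both. In bulk RNA, fewer cells that express a gene and less RNA per cell cannot be told apart. Transthyretin carries thyroid hormone and holds retinol-binding protein in the blood, while the serpins alpha-1 antitrypsin and antithrombin block proteases, neutrophil elastase for SERPINA1 and thrombin for SERPINC1.

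Of the 10 genes, 8 were represented by 11 windows in the RefSeq promoter table (GRCh38.p14, 250 bases before to 50 after a start) with 3 starts for RBP4 and 2 for SERPINA1, and TTR and SERPINC1 are named only. The 4 windows that held GTTAAT, letters of the site bound by HNF1, are shown because HNF1 is among the factors known to act on liver genes. Capitals mark GTTAAT on either strand and, where present, the TATA box TATAAA.
ALB (chr4:73404037-73404336, plus strand): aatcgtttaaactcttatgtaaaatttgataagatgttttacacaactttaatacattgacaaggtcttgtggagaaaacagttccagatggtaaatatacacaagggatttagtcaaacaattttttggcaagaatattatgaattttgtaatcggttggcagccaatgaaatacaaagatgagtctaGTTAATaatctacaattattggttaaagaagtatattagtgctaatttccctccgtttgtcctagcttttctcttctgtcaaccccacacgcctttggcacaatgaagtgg
AFP (chr4:73435971-73436270, plus strand): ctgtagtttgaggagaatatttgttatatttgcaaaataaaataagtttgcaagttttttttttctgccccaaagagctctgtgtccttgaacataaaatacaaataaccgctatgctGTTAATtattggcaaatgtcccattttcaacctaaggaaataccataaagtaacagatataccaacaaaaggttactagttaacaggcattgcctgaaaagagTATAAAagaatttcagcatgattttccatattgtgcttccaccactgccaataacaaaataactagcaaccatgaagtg
SERPINA1 (chr14:94388553-94388852, minus strand): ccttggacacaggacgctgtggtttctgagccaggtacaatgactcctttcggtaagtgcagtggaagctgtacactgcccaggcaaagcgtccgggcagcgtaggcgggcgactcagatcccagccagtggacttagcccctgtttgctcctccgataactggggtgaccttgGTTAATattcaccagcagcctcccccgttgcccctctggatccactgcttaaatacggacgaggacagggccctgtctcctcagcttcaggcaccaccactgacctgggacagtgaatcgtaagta
F2 (chr11:46718963-46719262, plus strand): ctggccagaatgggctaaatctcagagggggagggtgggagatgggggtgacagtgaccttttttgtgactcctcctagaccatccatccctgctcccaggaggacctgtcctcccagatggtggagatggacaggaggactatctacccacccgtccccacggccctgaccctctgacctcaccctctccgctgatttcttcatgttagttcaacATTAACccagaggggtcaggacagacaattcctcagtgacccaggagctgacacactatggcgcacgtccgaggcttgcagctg

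Counting the base before the start as -1, GTTAAT began at -61 in ALB, at -132 in AFP and at -76 in SERPINA1, and its reverse complement ATTAAC began at -34 in F2. Of 35116 windows of the same length in the table, 6.88% held GTTAAT on either strand, against 4 of the 11 windows of the list. TATAAA was in 4 of the 11 and in 11.5% of all windows, and the C/EBP letters TTNNGNAA were in 8 of the 11 and in 36.8%. The RBP4 windows overlap one another, and the second and the third hold the same TATAAA and the same C/EBP match, so each of these counts includes 1 genomic site more than once. The HNF4 letters CAAAGTCCA were found in AHSG alone, against 0.384% of all windows, and the FOXA letters TGTTTAC in none of the 11, against 3.42%. A match of letters is a description and says nothing of binding in these cells, and GTTAAT and TATAAA did not overlap in these windows.

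Expression of the liver programme was high in both transfections. ALB, AFP, SERPINA1 and AHSG had mean signals above those of all but 0.0549%, 0.126%, 0.0293% and 0.125% of probe sets. Of 9 hepatocyte markers, 8 had a probe set of their own and all 8 lay above 6.19, with a summed level on the log2 scale of 16.1 to 16.3 in miR-124 arrays and 16.1 to 16.3 in control arrays. Of the markers of other cells with a probe set, 3 of 6 for blood, 7 of 10 for fibroblasts and endothelium and 4 of 5 for bile duct lay above it. Their summed levels were 9.49 to 10.3 with miR-124 and 9.37 to 9.57 in the control for blood, 10.6 to 11.4 and 10.6 to 10.9 for fibroblasts and endothelium, and 12.7 to 13.3 and 12.9 to 13.1 for bile duct.

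Over the time course as a whole none of the 9 genes passed the test for an effect of miR-124. In the limma fit over 7 pairs 0 of 9 were called, with 0 at an unadjusted p under 0.05, where 0.784% of all genes were called lower and 0.129% higher. The same held for the early window (4 and 8 h), with 0 of 9 called and 0 unadjusted against 0% of all genes, and for the middle window (16, 24 and 32 h), with 0 of 9 called and 0 unadjusted against 4.36% of all genes lower and 3.46% higher. In these windows the single ratios of the 9 genes stayed between -0.14 and 0.24 on the log2 scale. At 72 and 120 h they ran from -1.21 to 0.23. Over the whole course the range of the miR-124 arrays overlapped that of the control arrays for each of the 9 genes. The share over all genes was not counted. Each range spans 4 to 120 h, so an overlap cannot show that the late values were alike.

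**Figure D1:**
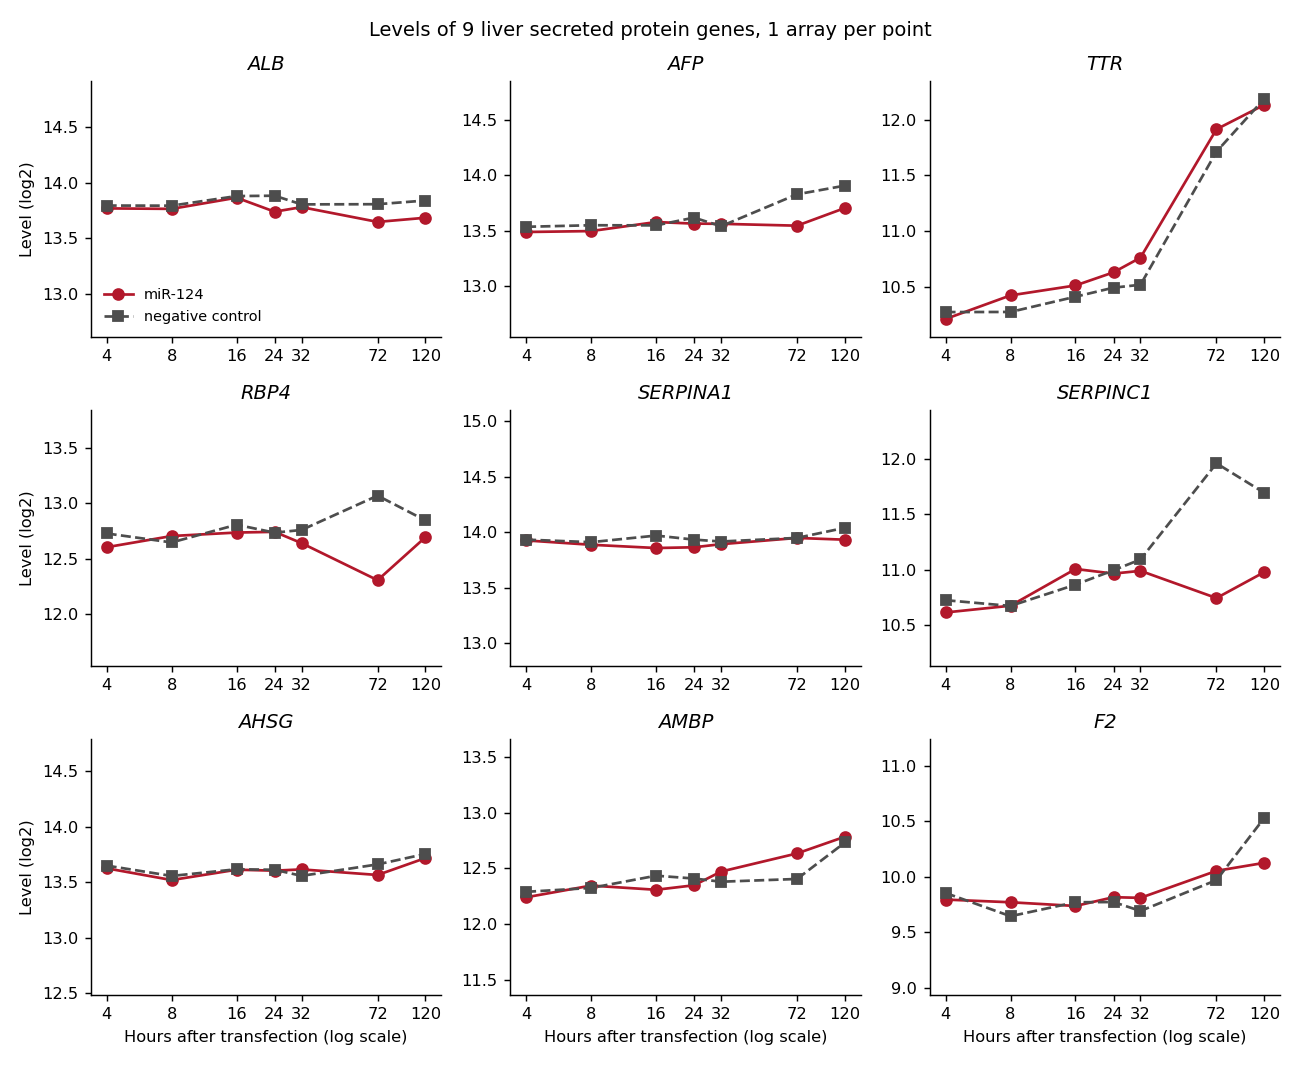
Level of 9 genes on the log2 scale (vertical axis, the same 2.3 units in each panel) against hours after transfection on a log axis, for miR-124 (red circles) and the negative control (grey squares), with 1 array per point. The courses lie close together up to 32 h, TTR climbs in both, and SERPINC1 at 72 h stands at 10.74 in the miR-124 arm and at 11.96 in the control arm.

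Antithrombin showed the largest difference of the 9 genes. SERPINC1 ranged from 10.62 to 11.01 with a median of 10.97 on the log2 scale in miR-124 arrays, against 10.67 to 11.96 with a median of 10.995 in control arrays. The arms lay together up to 32 h. At 72 h the miR-124 array read 10.74 and its control 11.96, and at 120 h they read 10.98 and 11.69. The log2 ratios over the 7 times were in turn -0.11, 0.00, 0.14, -0.03, -0.10, -1.21 and -0.71. In the late window (72 and 120 h) SERPINC1 was 1.95-fold lower with miR-124 than in the control (log2 -0.96 ± 0.13, SE, n = 2 pairs, limma adjusted p = 0.00147, lower in 2 of 2 pairs). With the late arrays fitted alone its limma adjusted p was 0.0575. The late effect was lower than the middle one by 0.97 ± 0.16 (limma adjusted p = 0.0186), in a comparison that called 1.54% of all genes lower and 3.21% higher, and SERPINC1 alone of the 9. That difference kept its sign without each time in turn, and its limma adjusted p was 0.0782, 0.0948 and 0.0525 without 16, 24 or 32 h. The other probe set of the gene, with a mean of 9.77, followed the same course, with ratios of -1.36 at 72 h and -0.96 at 120 h, and the 2 correlated at 0.985 over the 14 arrays.

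The gap in SERPINC1 lay against a climb in the control. Per doubling of time SERPINC1 rose by 0.26 ± 0.05 on the log2 scale in the control (SE, n = 7 arrays, limma adjusted p = 0.0230), while its slope with miR-124 was 0.06 ± 0.03 (limma adjusted p = 0.273). The difference of the slopes, -0.20 ± 0.07, did not pass (limma adjusted p = 0.125). Of the 9 genes 0 were called for a slope difference and 1 had an unadjusted p under 0.05, where 1.67% of all genes were called lower and 6.91% higher. Without 8 h the control slope was 0.25 and its limma adjusted p 0.0641.

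Among the 9 genes, 2 were called in the late window, SERPINC1 and RBP4, both lower, where limma called 12.6% of all genes lower and 16.4% higher. The late effects that did not pass ran from -0.24 for AFP to 0.14 for AMBP. AFP was also at an unadjusted p under 0.05. The median late effect of the 9 genes was -0.16 on the log2 scale, against -0.01 for all genes tested. The share of 7 of 9 with a ratio below 0 late is given without a test.

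Retinol-binding protein and transthyretin, which travel together in plasma, differed in their courses. RBP4 ranged from 12.31 to 12.74 with a median of 12.70 in miR-124 arrays, against 12.65 to 13.07 with a median of 12.76 in control arrays. The lowest miR-124 array and the highest control array were both those of 72 h, when the ratio was -0.76, and by 120 h it was -0.15. Late, RBP4 was lower with miR-124 than in the control by 0.46 ± 0.14 (1.37-fold, SE, n = 2 pairs, limma adjusted p = 0.0408). That call was lost with each array centred on its median (limma adjusted p = 0.0554). It was also lost with the late arrays fitted alone (limma adjusted p = 0.259). Without 4, 8, 16, 24 or 32 h the limma adjusted p of RBP4 was 0.0654, 0.0654, 0.0661, 0.0758 and 0.0691. Its late effect was -0.15 without 72 h and -0.76 without 120 h.

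TTR ranged from 10.21 to 12.14 with a median of 10.63 with miR-124, against 10.27 to 12.19 with a median of 10.49 in the control. It climbed with time in both arms, by 0.41 ± 0.06 per doubling of time with miR-124 (SE, n = 7 arrays, limma adjusted p = 0.00801) and by 0.40 ± 0.08 in the control (limma adjusted p = 0.0242). Slopes called higher numbered 2 of 9 with miR-124, against 13.7% of all genes, and 2 of 9 in the control, against 2.7%. Lower slopes numbered 0 of 9 in each arm, against 8.06% of all genes with miR-124 and 5.48% in the control. The control slope of TTR was 0.30 without 120 h, and its limma adjusted p was then 0.0712. It was 0.0667 without 8 h and 0.0563 without 72 h. The difference of the TTR slopes was 0.01 ± 0.03 (limma adjusted p = 0.855).

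Set against RBP4 on the same array, TTR lay higher in the miR-124 array of 7 of 7 pairs, by 0.268 ± 0.322 on the log2 scale (SD, n = 7 pairs, exact two-sided sign-flip permutation p = 0.015625, the smallest that 7 pairs can give, and 0.046875 adjusted over 3 such comparisons). Without the 72 h pair the value was 0.152, and leaving out any 1 pair gave an exact adjusted p of 0.09375, since 6 pairs cannot pass. With the mean of each gene's probe sets in place of the brightest, the value was 0.225 and the exact sign-flip permutation p adjusted over the 3 was 0.305. AFP set against ALB changed by -0.00479 ± 0.0712 (SD, n = 7 pairs, lower in 4 of 7, exact sign-flip permutation p = 0.859), with a sign that turned when probe sets were averaged (0.134). SERPINC1 set against SERPINA1 changed by -0.240 ± 0.502 (SD, n = 7 pairs, lower in 4 of 7, exact sign-flip permutation p = 0.3125). The exact adjusted p-values of these were 0.859 and 0.469.

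Neither gene of the albumin pair passed the late test on its brightest probe set. Of 4 genes listed for the albumin family these 2 were the ones tested, with a median late effect of -0.20. AFP, with 1 probe set, ranged from 13.49 to 13.71 with a median of 13.56 with miR-124, against 13.54 to 13.91 with a median of 13.55 in the control. Its ratios were between -0.05 and 0.03 up to 32 h and were -0.28 at 72 h and -0.20 at 120 h. The late effect, -0.24 ± 0.08, missed the threshold (SE, n = 2 pairs, limma adjusted p = 0.0511), and passed it with an intensity trend in the variance (limma adjusted p = 0.00610) and with probe sets averaged for every gene (limma adjusted p = 0.0345).

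ALB on its brightest probe set ranged from 13.65 to 13.87 with a median of 13.77 with miR-124, against 13.79 to 13.88 with a median of 13.81 in the control. The miR-124 array was the lower of the pair at all 7 times, by 0.01 to 0.16, which was so for 4.8% of all genes, while 4.22% were higher at all 7. Among the 9 genes SERPINA1 alone shared this, with ratios from -0.11 to 0.00. The late effect on ALB was -0.16 ± 0.08 (SE, n = 2 pairs, limma adjusted p = 0.184), and it passed with an intensity trend (limma adjusted p = 0.0353).

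Probe sets of the same gene gave different sizes of change. For ALB the dimmest, with a mean of 8.30, ranged from 6.76 to 8.62 with a median of 8.15 in miR-124 arrays, against 8.42 to 8.73 with a median of 8.51 in control arrays. Its log2 ratios over the 7 times were in turn -0.01, 0.08, -0.09, -0.39, -0.59, -1.97 and -0.51, so the 72 h array stood lowest. Another, with a mean of 13.37, had a ratio of -0.44 at 72 h and -0.39 at 120 h. When every probe set was fitted on its own, both were called lower late, at -1.24 ± 0.27 (limma adjusted p = 0.0159) and -0.41 ± 0.08 (limma adjusted p = 0.00849), beside -0.16 ± 0.08 for the brightest (limma adjusted p = 0.261). The remaining ALB probe set, with a mean of 10.27, had a late effect of 0.08 ± 0.50 (limma adjusted p = 0.951), with ratios of 0.26 at 72 h and -0.09 at 120 h.

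SERPINA1 also differed among its probe sets. The brightest ranged from 13.86 to 13.95 with a median of 13.89 with miR-124, against 13.91 to 14.04 with a median of 13.93 in the control. The pair with means of 13.92 and 13.70 had late effects of -0.05 and -0.04, and the one with a mean of 10.17 ranged from 9.50 to 10.40 with a median of 9.99 with miR-124, against 9.97 to 10.77 with a median of 10.37 in the control. That probe set was lower by 0.72 at 72 h and by 1.04 at 120 h, and its late effect was -0.88 ± 0.12 (limma adjusted p = 0.00161, fitted over every probe set). Its slope with time was -0.16 ± 0.03 per doubling with miR-124 (limma adjusted p = 0.0204), the 1 of 19 probe sets with a called fall. That stands against 3% of every probe set, dim ones included, and 8.06% of the genes tested above the filter. The remaining one had a mean of 4.34, below the filter, and is the only one of the 19 that was.

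For AHSG, which codes for fetuin-A, a glycoprotein that binds calcium phosphate, the brighter probe set ranged from 13.52 to 13.72 with a median of 13.61 with miR-124, against 13.56 to 13.75 with a median of 13.62 in the control. It was at -0.07 ± 0.08 late and the other, with a mean of 12.99, at -0.32 ± 0.08 (limma adjusted p = 0.681 and 0.0320, fitted over every probe set). In all, 6 of the 19 probe sets were called lower late and 0 higher, where 5.89% of every probe set fitted was called lower and 8.8% higher. Those shares include dim probe sets, whereas 18 of the 19 had a mean above 6.19. Over the genes tested above 6.19, 12.6% were called lower and 16.4% higher. Several of the 19 belong to the same gene and are not independent. The 6 belonged to SERPINC1, ALB, SERPINA1 and AHSG. The brighter RBP4 probe set missed the threshold in that fit (limma adjusted p = 0.0523).

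**Figure D2:**
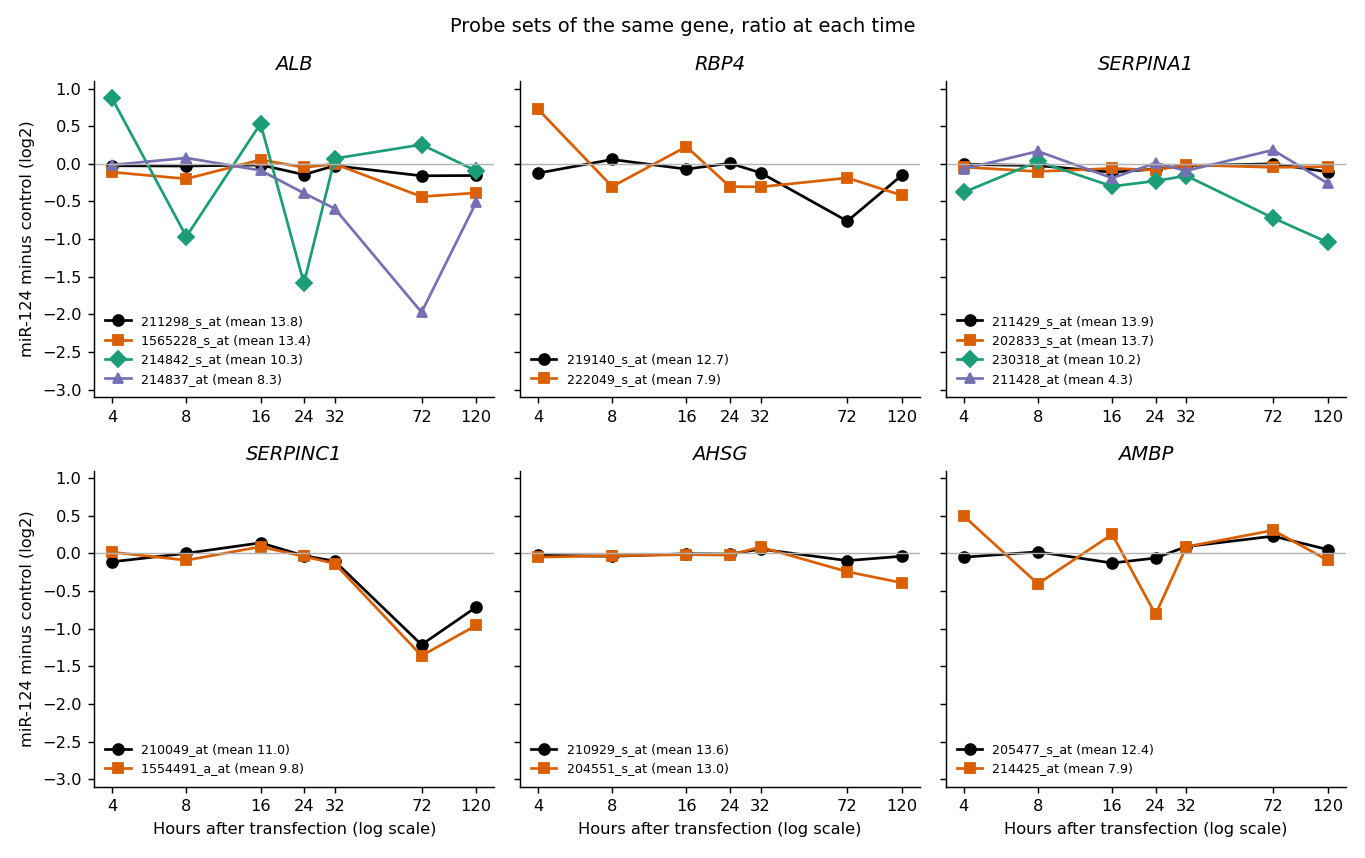
Log2 ratio of miR-124 over control at each time (log axis) for the 6 genes with several probe sets, 1 line per probe set and its mean level in the legend. At 72 h the dimmest ALB probe set lies at -1.97 while the brightest lies at -0.16, and the SERPINC1 lines run together.

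Over all genes the spread of the late effect differed with signal. The 77 tested genes with a mean of 13 or more, with ALB, AFP, SERPINA1 and AHSG among them, had an SD of the late log2 effect of 0.138, and 5 of them (6.49%) were called. For the 1638 genes between 10 and 12, with TTR and SERPINC1 among them, the SD was 0.517 and 39.4% were called, and over all 13137 it was 0.476. The highest value on any array was 14.37. The part of signal near the top of the scale in the small effects on the brightest probe sets was not tested.

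**Figure D3:**
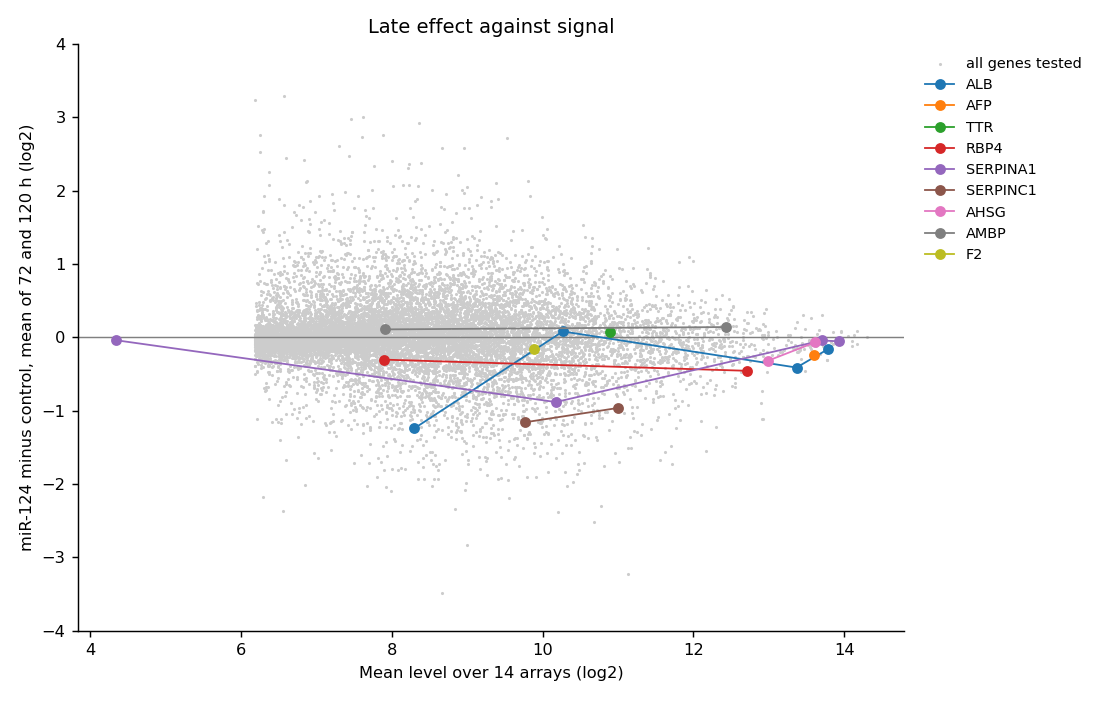
Late effect (mean log2 ratio of miR-124 over control at 72 and 120 h) against mean level over the 14 arrays, for all 13137 genes tested (grey) and for the 19 probe sets of the 9 genes (coloured, lines joining probe sets of a gene). The grey cloud narrows at the bright end, where the 4 brightest genes lie.

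The remaining genes code for precursors cut after synthesis and for a matrix protein. AMBP, the precursor of alpha-1-microglobulin and bikunin, ranged from 12.24 to 12.79 with a median of 12.35 with miR-124, against 12.29 to 12.73 with a median of 12.41 in the control. Its level rose by 0.11 ± 0.02 per doubling of time with miR-124 (SE, n = 7 arrays, limma adjusted p = 0.0223), against 0.07 ± 0.02 in the control (limma adjusted p = 0.113). These slopes differed by 0.04 ± 0.03 (limma adjusted p = 0.441). The call with miR-124 was lost without 4, 8 or 120 h (limma adjusted p = 0.0507, 0.0518 and 0.0693) and with probe sets averaged (0.05, limma adjusted p = 0.242).

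F2, prothrombin, which antithrombin inhibits once it is cut to thrombin, ranged from 9.74 to 10.12 with a median of 9.81 with miR-124, against 9.64 to 10.53 with a median of 9.77 in the control. Its ratios lay between -0.06 and 0.13 up to 72 h, and the control array of 120 h, at 10.53, stood above the rest. The late effect was -0.16 ± 0.12 (limma adjusted p = 0.381). It rested on which late pair was used, being -0.41 without 72 h (limma adjusted p = 0.0363, past the threshold) and 0.08 without 120 h (limma adjusted p = 0.634). The brighter probe set listed for both SEBOX and VTN ranged from 9.35 to 9.83 with a median of 9.62 with miR-124, against 9.48 to 9.91 with a median of 9.54 in the control, and its ratios lay between -0.14 and 0.31. The dimmer one ranged from 6.16 to 6.37 with miR-124, against 6.18 to 6.37 in the control. Vitronectin is an adhesive plasma protein, and no test was made on these probe sets.

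One measure of RNA quality, the excess of 3' over 5' ACTB signal, was higher in the miR-124 array at every time. A higher value means relatively less 5' signal, not better RNA. At 72 h the log2 difference between 3' and 5' ACTB probe sets was 0.357 in the miR-124 array and 0.237 in its control, and at 120 h it was 0.411 and 0.102. The same difference for GAPDH was 0.301 and 0.145 at 72 h, and 0.199 and 0.031 at 120 h. At 4 h the GAPDH difference was not higher with miR-124 (0.195 and 0.204). Their part in the late results on SERPINC1, RBP4 and the dimmer ALB and SERPINA1 probe sets was not tested.

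Other proteins of the same secretory class were compared by lists. Here and below, fell and rose mean called lower and higher with miR-124 than in the control of the same times. Of 11 other liver serpins tested, 5 fell and 2 rose late, and the list's median was -0.25. SERPINA3, alpha-1 antichymotrypsin, fell by 3.22 ± 0.09 (limma adjusted p = 6.63e-06), SERPING1, the C1 inhibitor, by 0.63 ± 0.09 and SERPIND1, heparin cofactor II, by 0.54 ± 0.09, while SERPINA4, kallistatin, rose by 0.55 ± 0.11. Of 14 other coagulation and fibrinolysis proteins, 5 fell and 1 rose, and the median was -0.24. FGA and FGB, chains of fibrinogen, were at -1.23 ± 0.12 and -0.46 ± 0.09, the anticoagulant cofactor PROS1 was at -0.84 ± 0.11, and F5, the cofactor of prothrombin cleavage, was 3.81-fold higher (log2 1.93 ± 0.11, limma adjusted p = 0.000106).

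Among 12 other carrier and plasma proteins 6 fell and 1 rose, and the median was -0.41. CP, a copper protein, was at -2.84 ± 0.21, HP, which binds free haemoglobin, at -2.38 ± 0.37, ORM1, an acute phase glycoprotein, at -1.55 ± 0.205 and A1BG at -0.73 ± 0.10. In the middle window SERPINA3 fell (-0.52 ± 0.07, limma adjusted p = 0.00798) and F5 rose (0.39 ± 0.09, limma adjusted p = 0.0369), as the only calls in these 3 lists. Their late shares are to be read against 12.6% lower and 16.4% higher over all genes, and against 2 of 9 for the genes described above.

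Of 15 regulators of ALB and AFP that were tested, HHEX, a homeobox factor of early liver, fell by 1.27 ± 0.20 (limma adjusted p = 0.00301) and the other 14 were not called late, with a list median of 0.02. Of 8 fetal liver and hepatoma genes, AFP included, 3 fell and 1 rose, and the median was -0.21. SPINK1, a trypsin inhibitor, was at -1.36 ± 0.11, LIN28B, which blocks let-7 processing, at -1.10 ± 0.28 and DLK1 at -0.40 ± 0.09, while GPC3, glypican, was at 0.43 ± 0.12. Of 20 genes of the secretion machinery, 11 fell and 0 rose, and the median was -0.41. Late counts for the regulators, the fetal genes and this list are to be read against 12.6% of all genes lower and 16.4% higher. SSR3 and SSR2, subunits at the translocon, were at -1.12 ± 0.19 and -0.77 ± 0.14, the cargo receptor SURF4 at -0.92 ± 0.16 and the coat GTPase SAR1B at -0.89 ± 0.19.

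Of the markers of the 4 cell classes, calls in the late window are to be read against 12.6% of all genes lower and 16.4% higher. KRT8, a keratin that hepatocytes hold, was the 1 of 8 hepatocyte markers called, at 0.41 ± 0.11. CD3D, a T cell receptor chain, was called at 1.44 ± 0.25 among 3 blood markers, and ACTA2, a smooth muscle actin, and PECAM1, an endothelial adhesion protein, at 1.07 ± 0.17 and 0.46 ± 0.11 among 7 of fibroblasts and endothelium. Of 4 bile duct markers KRT19 was at 0.84 ± 0.10 and SOX9 at -0.49 ± 0.14. Their part in the results on the liver genes was not tested.

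**Figure D4:**
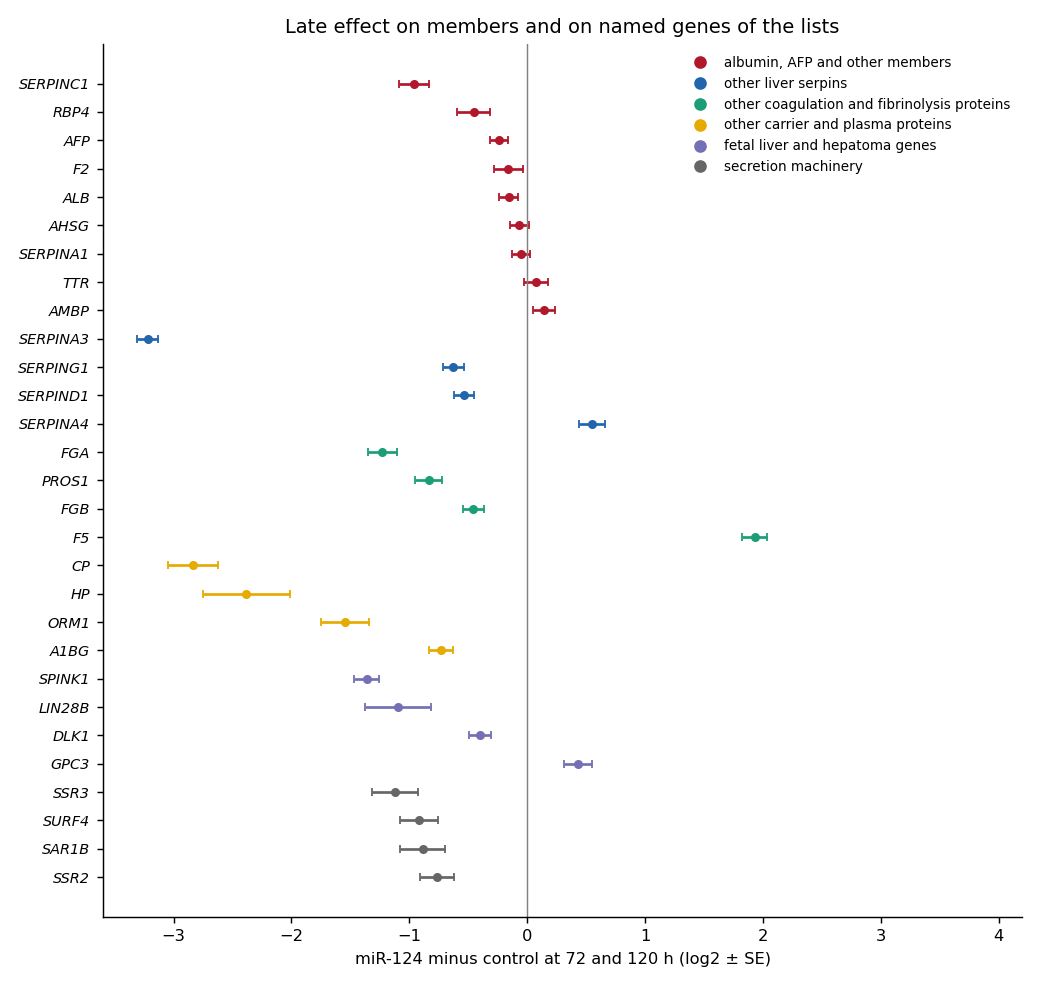
Late effect of miR-124 (log2, points, with bars of 1 SE from the limma fit, n = 2 pairs) for the 9 genes (red, top) and for the genes named from 5 lists. SERPINC1 at -0.96 lies lowest of the red points, and SERPINA3 at -3.22, CP at -2.84 and HP at -2.38 lie lowest of all shown.

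Over the 14 arrays the 9 genes did not run as 1 block. The highest correlations between them were those of AFP with SERPINC1 (r = 0.898), TTR with AMBP (0.892) and TTR with F2 (0.866), all arrays sharing the 2 time courses. The tested genes most like ALB were HSPA13, NEDD1 and SRBD1 (r = 0.915, 0.912 and 0.893), and those most like SERPINA1 were HBP1, PYGL and FAM114A1 (0.912, 0.893 and 0.890). AFP ran most closely with FGG, EBP and TMEM97 (0.941, 0.937 and 0.934), and SERPINC1 with PECR, EBP and MTTP (0.932, 0.919 and 0.912). These are descriptions over 14 arrays without a test, and a search among 13137 genes will find high values.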

How the data were processed

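Total RNA of HepG2 cells was profiled on 14 arrays, 7 per transfection. Per the submitters' processing notes the authors used RMA (its version is not given in the sources used here), and the deposited values are log2 levels per probe set, from 2.927 to 14.37. RMA makes the arrays' distributions alike. Of 54675 probe sets 62 were controls, 41091 had 1 gene symbol, 1801 several and 11721 none listed. The number of arrays limits the precision.

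Gene identifiers of 41037 probe sets matched RefSeq, with no symbol changed. Genes were fitted with limma 3.58.1 in R 4.3.3 (lmFit and eBayes, two-sided, Benjamini-Hochberg over 13137 genes, adjusted p under 0.05, tested on simulated data). The simulated noise was independent with the same SD at every time, so that test could not show what a larger late spread does. Effects used time as a block, with 6 residual degrees of freedom overall and 4 for the windows, which share 1 spread per gene. Slopes on log2 time had 5. The labels pair arrays by time, and deviations from group means correlated within pairs at 0.206 to 0.480. No label ties an array to a culture of its own, and the p-values cover spread among the 14 arrays alone, which may be technical. Errors are SE from the fits unless called SD.

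Members, lists and tests were chosen with earlier results of these data known. Named were all members, up to 4 genes per list by late effect among those called (2 with none called), and the 3 genes most like ALB, AFP, SERPINA1 and SERPINC1 by Pearson correlation. Alternatives were array centring, no filter, every probe set, averaged probe sets, an intensity trend, each time left out, no block, windows fitted alone and rank time. Figures used matplotlib 3.10.9.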

Additional observations from a re-analysis of the deposited data

Results flagged for a closer look

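Among 27 sets of 7 values (the miR-124 arrays, the control arrays and the ratios of the 9 genes), 6 held an end value whose gap to the next exceeded Dixon's 95% critical share of the range. Chance gives about 1 in 20, and the 7 values are a time course, not replicates. RBP4 was lowest at 72 h in miR-124 arrays, at 12.31 on the log2 scale, and in the ratio, at -0.76. F2 had its highest control level at 120 h, 10.53, and its lowest ratio there, -0.41. AFP in miR-124 arrays was highest at 120 h, at 13.71, and AMBP in control arrays was highest at 120 h, at 12.73. SERPINC1 had a late effect of miR-124 that was below its middle effect by the limma test of the difference, at -0.97 on the log2 scale.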

How the results depend on the processing

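The number of the 9 genes called late was 2, and it was 1 with each array centred on its median, 1 with every probe set fitted, 4 with an intensity trend (AFP and ALB added), 0 with the 4 late arrays fitted alone, and 1 to 2 without single times. SERPINC1 was called late under 12 of 13 alternatives, the exception being the late arrays fitted alone (limma adjusted p = 0.0575). The 13 include the fits without 72 or 120 h, which leave 1 late pair. SERPINC1 was lower under all 13, but the late effect is the mean of the 2 late ratios. Its sign could therefore turn only with centring, with averaged probe sets, or without 72 or 120 h. The late minus middle count of 1 ran from 0 to 2 without single times. Without single times the control slope count of 2 ran from 0 to 2 and the miR-124 slope count of 2 from 1 to 2. With an intensity trend the control slope count was 3, AFP being added (limma adjusted p = 0.0426), and with probe sets averaged the miR-124 slope count was 1. The pairing by time came from the labels, and with no replicate block 0 of 9 were called over the time course, as with it. Both fits give the same effect in this balanced design, so no direction could turn. TTR over RBP4 was 0.225 with probe sets averaged and 0.152 (without 72 h) to 0.302 without single times, where 6 pairs cannot pass. AFP over ALB was 0.134 with probe sets averaged and -0.0205 to 0.0149 without single times, and SERPINC1 over SERPINA1 -0.323 to -0.0783. With 1 array per arm and time, no single time could be tested, and each late value rests on 2 pairs.

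Some effects turned sign, and the cause was not tested. The value with the turned sign never passed the threshold, though the late effect of F2 passed it without 72 h. With arrays centred these were the middle effect of SERPINC1 (-0.00921) and the slope difference of AHSG (0.00117). With probe sets averaged they were the middle effect of SERPINC1 (-0.0125), the early effects of RBP4 (0.0894) and AMBP (0.0165), the late minus middle effect of SERPINA1 (-0.144) and the SERPINA1 slopes in the control (-0.000422) and with miR-124 (-0.0443).

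Without single times, signs also turned within these ranges. Early effects ran from -0.0492 to 0.0212 for AMBP, -0.0594 to 0.125 for F2, -0.124 to 0.0577 for RBP4, -0.11 to 0.00203 for SERPINC1 and -0.0623 to 0.149 for TTR. Middle effects ran from -0.016 to 0.026 for AFP, -0.00595 to 0.0271 for AHSG, -0.0938 to 0.0152 for AMBP and -0.0661 to 0.0555 for SERPINC1. Late effects ran from -0.405 to 0.0834 for F2 and -0.0555 to 0.202 for TTR, and late minus middle effects from -0.448 to 0.0407 for F2, -0.0385 to 0.0679 for SERPINA1 and -0.217 to 0.0406 for TTR. Overall effects ran from -0.0121 to 0.0474 for AMBP and -0.0422 to 0.0463 for F2. Slopes ran from -0.00186 to 0.0327 for AHSG and -0.0585 to 0.0108 for RBP4 with miR-124, and from -0.000585 to 0.00957 for ALB in the control. Slope differences ran from -0.0106 to 0.00309 for AHSG, -0.0901 to 0.0258 for F2, -0.0175 to 0.00021 for SERPINA1 and -0.0278 to 0.0585 for TTR.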

Other observations

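A group of 3 dimmer probe sets of ALB, AMBP and RBP4 varied from array to array in a way that the other probe sets of those genes did not. The ALB probe set with a mean of 10.27 ran from 9.32 to 10.91 on the log2 scale, and its log2 ratios of miR-124 over control from 4 to 24 h were in turn 0.87, -0.97, 0.53 and -1.59. The dimmer AMBP probe set turned the same way at those times (0.50, -0.40, 0.26 and -0.81), as did the dimmer RBP4 probe set (0.73, -0.30, 0.23 and -0.30). At 32 and 72 h that of RBP4 went the other way (-0.31 and -0.19) from those of ALB (0.07 and 0.26) and AMBP (0.09 and 0.31). At 120 h they were at -0.42, -0.09 and -0.09. Over the 14 arrays those of ALB and AMBP correlated at 0.913, and that of RBP4 with them at 0.675 and 0.665. That of ALB correlated with the brightest ALB probe set at 0.0426. In all, 43 other probe sets correlated with it above 0.9, the closest being annotated to RPL38 (0.981). Its correlation with the 18S ribosomal RNA signal was 0.277. Averages over the probe sets of ALB, AMBP and RBP4 contain these values.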
